A study of Homo sapiens with 4 samples.

Results

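The genes described here were 7 members of the LY6 family of small surface proteins: LYPD1, LYPD3, LYPD6B, LY6D, LY6E, LY6K and CD59. They were found by Ensembl ID among the 60617 genes of a table of transcript levels, and all 7 were listed. The set was chosen by a measured value, the lower level of LYPD1 and LYPD3 in treated cells of both lines, so differences with treatment are given below as a description, without a test.

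LY6 proteins share the three-finger fold, a small disulfide-bonded domain also found in snake neurotoxins and in the urokinase receptor. Most are made with a signal at the carboxyl end that the transamidase complex replaces with a glycosylphosphatidylinositol (GPI) lipid, which holds the protein at the outer face of the plasma membrane. Members include modulators of nicotinic acetylcholine receptors, an inhibitor of complement, and antigens of squamous epithelium and of tumours.

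The libraries came from T24 and 5637, established lines of human urinary bladder carcinoma. Each line was grown in RPMI medium with fetal bovine serum and kept for 6 h without or with protodioscin, a steroidal saponin of plants such as fenugreek and yam. Titles of the samples state 60 µM for T24 and 70 µM for 5637, while the protocol text writes millimolar for both. Doses are given here as in the titles. Controls are called untreated, and no vehicle is named. Each of the 4 groups was 1 library of polyadenylated RNA, so no value within a line has a replicate error, and the doses of the lines were not matched.

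Levels are in FPKM, which scales fragment numbers by transcript length and by library size, and differences are on the scale of log2(FPKM + 1). Genes at 1 FPKM or above numbered 11941 to 12405 per library. The value of a single read on a 1 kb transcript was estimated at 0.0171 to 0.0246 FPKM. By the same estimate, relative depth ran from 1 in untreated T24 to 1.43 in untreated 5637. The epithelial keratins KRT8 and KRT18 were at 227 FPKM or more in all 4 libraries. E-cadherin (CDH1) and the basal keratin KRT5 were at 69.6 and 331 FPKM in untreated 5637 but at 0.016 and 0 FPKM in untreated T24. Of the other basal markers, KRT6A, KRT14 and TP63 were also higher in untreated 5637. The basal keratin KRT17 had the opposite order, at 634 FPKM in untreated T24 and 404 FPKM in untreated 5637. The pan-leukocyte marker PTPRC was at 0.00533 FPKM or less in all 4 libraries. Of the immune and endothelial markers, CD68 (7.08 and 10.5 FPKM) and CDH5 (1.57 and 0.777 FPKM) reached 1 FPKM in T24, and CD68 did so in 5637 (1.60 and 1.65 FPKM).

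The promoters of LYPD1 and LYPD3 are shown because these 2 genes were lower together in both lines. Each sequence is the stretch of 250 bases before a RefSeq start (GRCh38.p14), read 5′ to 3′ on the gene's own minus strand. RefSeq gives LYPD1 2 starts that lie 1321 bases apart, at positions 132671526 (outer) and 132670205 (inner) of chromosome 2. The windows are chr2:132671527-132671776, chr2:132670206-132670455 and chr19:43465609-43465858, in the order shown. Capitals mark the AP-1 word TGANTCA and the GC box GGGCGG, found on either strand.
LYPD1, outer start: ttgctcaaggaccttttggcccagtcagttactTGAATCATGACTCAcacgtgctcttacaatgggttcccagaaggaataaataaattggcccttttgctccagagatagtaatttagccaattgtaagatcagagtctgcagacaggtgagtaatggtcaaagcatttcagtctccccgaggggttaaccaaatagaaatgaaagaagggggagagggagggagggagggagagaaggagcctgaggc
LYPD1, inner start: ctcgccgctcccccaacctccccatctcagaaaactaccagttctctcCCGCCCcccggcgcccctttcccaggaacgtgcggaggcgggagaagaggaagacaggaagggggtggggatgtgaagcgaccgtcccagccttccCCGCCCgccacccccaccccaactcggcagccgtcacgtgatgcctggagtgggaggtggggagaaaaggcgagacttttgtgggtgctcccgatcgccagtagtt
LYPD3: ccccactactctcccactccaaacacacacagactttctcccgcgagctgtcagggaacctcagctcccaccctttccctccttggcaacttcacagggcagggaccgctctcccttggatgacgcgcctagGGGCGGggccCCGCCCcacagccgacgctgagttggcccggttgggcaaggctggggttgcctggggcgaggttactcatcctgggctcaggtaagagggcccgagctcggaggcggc
The outer LYPD1 window held 2 matches to the AP-1 word back to back, TGAATCA at -217 and TGACTCA at -210 from the start. The word leaves its middle base open, and only the match at -210 has the C or G of the usual AP-1 site. Not in capitals, this window also held 2 CCAAT boxes. The inner LYPD1 window held 2 GC boxes at -202 and -106, and the LYPD3 window held 2 at -118 and -108. Of 35116 promoter windows of this length, 6.57% held an AP-1 word, 42.6% a GC box and 32.0% a CCAAT box. No TATA box (TATAAA), TEAD word (GGAATG) or ETS word (CCGGAA) was found on either strand in these 3 windows. Those words were in 10.7%, 11.9% and 14.5% of all windows. GC content was 46.8% in the outer LYPD1 window, 65.6% in the inner one and 66.4% in that of LYPD3, beside a median of 58% over all windows. Gene-level values do not tell which LYPD1 start was in use. The window of 1 CD59 start, not printed here, also held 2 AP-1 words, at -117 and -23. A pair of AP-1 words was therefore not particular to LYPD1 among the members.

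Levels of the members ran from 0 to 271 FPKM, and their order was not the same in T24 and 5637. In T24, LY6E was highest (253 FPKM untreated and 271 FPKM treated), followed by CD59 (213 and 184 FPKM), LYPD1 (106 and 73.4 FPKM) and LY6K (81.1 and 65.7 FPKM). LYPD3 followed at 5.97 and 4.11 FPKM, and LYPD6B and LY6D were near or at 0. The ranges of LYPD1 and LY6K over both T24 libraries overlapped, and those of the other neighbours in this order did not.
In 5637 the order was CD59 (131 and 121 FPKM), LY6E (91.0 and 84.1 FPKM), LY6K (38.5 and 30.8 FPKM), LYPD3 (36.9 and 25.1 FPKM), LYPD1 (29.2 and 18.3 FPKM) and LYPD6B (4.59 and 3.69 FPKM). Here the range of LYPD3 overlapped those of both LY6K and LYPD1. LYPD1 was at 17.7 times the level of LYPD3 in untreated T24 and at 0.793 times in untreated 5637, and the corresponding ratios in treated cells were 17.8 and 0.731. Summed over the 7 genes, the untreated and treated T24 libraries reached 660 and 599 FPKM, and those of 5637 332 and 283 FPKM. LY6E and CD59 made up 38.4% and 32.3% of that sum in untreated T24, and 27.4% and 39.6% in untreated 5637.

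**Figure D1:**
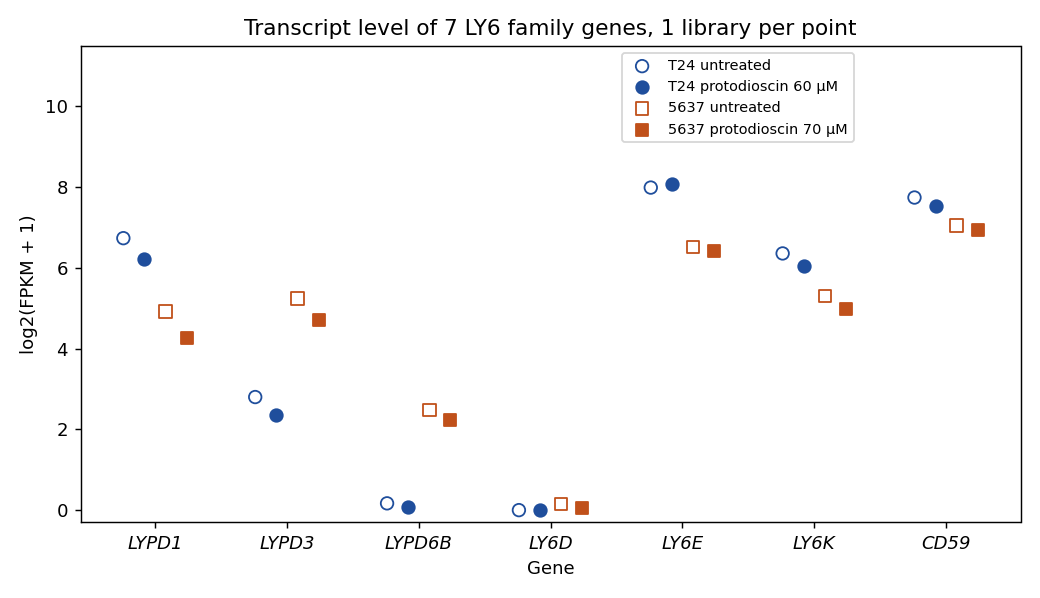
Transcript level of the 7 LY6 family genes in each of the 4 libraries, as log2(FPKM + 1). Circles are T24 and squares 5637, open symbols untreated and filled symbols treated cells, with 1 library per symbol. T24 has the higher values of LYPD1, LY6E, LY6K and CD59, and 5637 those of LYPD3 and LYPD6B.

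The genes were not chosen by the difference between the lines, which was tested with limma over the 4 libraries, in a model of line plus treatment. The choice did ask for a lower level of LYPD1 and LYPD3 with treatment in both lines. Treatment differences that are alike leave a small residual in this model, so standard errors and p-values of the line difference are not independent of the choice. In this fit, 68.9% of the 12893 genes tested were called at a Benjamini-Hochberg adjusted p below 0.05. Of all genes tested, 35.1% were called higher in T24 and 33.9% higher in 5637. A call alone is therefore common among genes of these lines. The spread behind these p-values rests on 1 residual degree of freedom beside the variance shared over all genes. With 1 library per group, that residual is how far the treatment differences of T24 and 5637 disagree, at doses that were not matched. The labels name no separate cultures, and the design gives no estimate of the spread between replicate cultures or libraries. The p-values are therefore not measured against replicate error.

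LYPD1, also known as Lynx2, modulates nicotinic receptors in neurons. It lies on chromosome 2 (132644853 to 132671579, minus strand, ENSG00000150551). The mean level was 89.6 FPKM in T24 and 23.8 FPKM in 5637, a 3.76-fold difference, and on the log2 scale T24 was higher by 1.88 (SE 0.066, limma adjusted p = 5.07e-06). Both T24 libraries lay above both 5637 libraries.

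LYPD3, also known as C4.4A, is a relative of the urokinase receptor found in the upper layers of squamous epithelium. It lies on chromosome 19 (43460787 to 43465660, minus strand, ENSG00000124466) and had the opposite order. The mean level was 30.98 FPKM in 5637 and 5.04 FPKM in T24, a 6.14-fold difference (T24 minus 5637 -2.40, SE 0.078, limma adjusted p = 4.08e-06). In untreated 5637, LYPD3 was above 86.2% of the genes that reached 1 FPKM, and in untreated T24 above 35.9% of them.

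LYPD6B, a modulator of nicotinic receptors (chromosome 2, 149038107 to 149215262, plus strand, ENSG00000150556), had levels of 4.59 and 3.69 FPKM in 5637, against 0.124 and 0.058 FPKM in T24. The T24 values amount to 1.22 and 0.733 fragments on its shortest coding transcript. LYPD6B entered the fit only through its 5637 libraries, so its difference of -2.23 (SE 0.11) is given as a description, with no test. Its size follows the pseudocount, at -4.49 with 0.1 and -0.84 with 5.

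The LY6 genes of chromosome 8 and CD59 on chromosome 11 were higher in T24, except LY6D. LY6E, an interferon-inducible protein that restricts the entry of coronaviruses (143017982 to 143023832, plus strand, ENSG00000160932), had means of 262 FPKM in T24 and 87.5 FPKM in 5637 (T24 minus 5637 1.57, SE 0.072, limma adjusted p = 1.38e-05). LY6K, an antigen of testis and of tumours (142700111 to 142705127, plus strand, ENSG00000160886), was 2.12-fold higher in T24 (1.06, SE 0.060, limma adjusted p = 2.97e-05). CD59, or protectin, blocks assembly of the membrane attack complex of complement (33703010 to 33736491, minus strand, ENSG00000085063). Its difference was the smallest among the members in the fit, at 1.58-fold (0.65, SE 0.061, limma adjusted p = 0.000209). For LY6E, LY6K and CD59, as for LYPD1, both T24 libraries were above both 5637 libraries.

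LY6D, a surface antigen of keratinocytes (chromosome 8, 142784880 to 142786592, minus strand, ENSG00000167656), was at 0.109 and 0.038 FPKM in 5637 and listed at 0 in T24. On its transcript of 804 bases the 5637 values amount to 2.55 and 0.736 fragments. It did not enter the fit, and no difference was detectable at this depth.

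**Figure D2:**
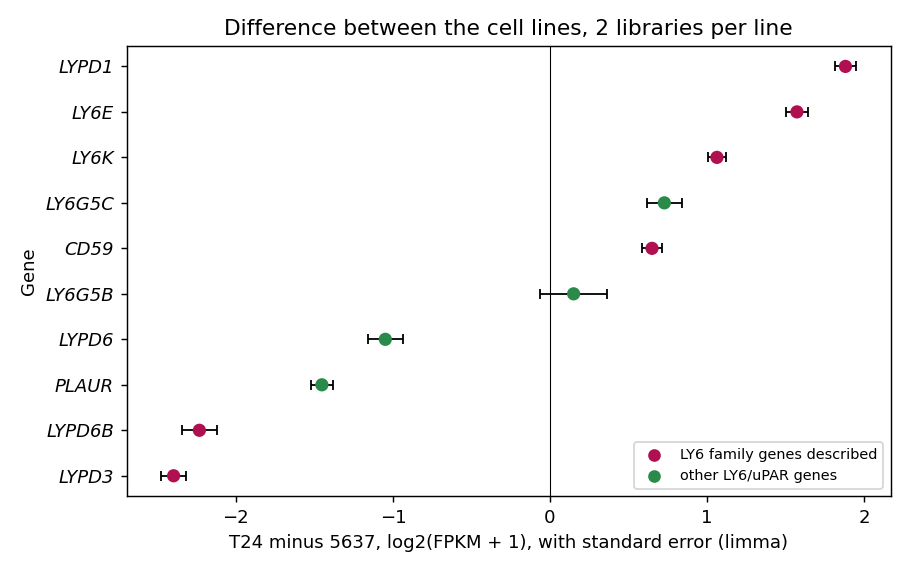
Difference between T24 and 5637 on the log2(FPKM + 1) scale for the 10 LY6/uPAR genes in the limma fit, with bars of 1 standard error over 2 libraries per line. The libraries of a line are 1 untreated and 1 treated, so the bars are not replicate error. LYPD1 lies farthest to the side of T24 at 1.88 and LYPD3 farthest to the side of 5637 at -2.40.

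With protodioscin, LYPD1 and LYPD3 were at 62.7% to 69.4% of their untreated level in both lines, LY6K at 80.0% to 81.0% and CD59 at 86.3% to 91.9%. LY6E was at 107% in T24 and 92.4% in 5637. These values chose the set, so nothing is read from the counts that follow. A gene was compared within a line if either library of that line had it at 1 FPKM or more, and a difference of 0.5 was taken as the size to count. In T24, 4 of the 5 members compared were below 0, beside 44% of all 12193 genes, and 1 was lower by 0.5 or more, beside 2.23% (none was higher by that much, beside 1.03%). In 5637, 6 of 6 members compared were below 0, beside 38.5% of all 12635 genes, and 2 were lower by 0.5 or more, beside 1.11%. Of the 5 members compared in both lines, 4 were below 0 in both, beside 19.8% of genes. LYPD1 alone was lower by 0.5 or more in both, beside 0.158%. The median difference over all genes was 0.025 in T24 and 0.043 in 5637.

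LYPD1 went from 106 to 73.4 FPKM in T24 and from 29.2 to 18.3 FPKM in 5637, untreated to treated. The treated library was the lower one in each line, and the log2 differences were -0.52 in T24 and -0.65 in 5637. Counting error alone, from the reads these levels stand for on the shortest coding transcript, was 0.045 and 0.083 on the log2 scale. It covers sampling of reads and no difference between cultures. It was computed without the constant added to FPKM, so it is too large beside the differences of low genes. LYPD1 was the 250th lowest difference among the 12193 genes compared in T24 and the 67th lowest among 12635 in 5637.

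LYPD3 was at 5.97 and 4.11 FPKM in T24, a difference of -0.45 with a counting error of 0.15. In 5637 it was at 36.9 and 25.1 FPKM, a difference of -0.54 with a counting error of 0.056. As a share of the untreated level the lines differed by little, at 68.9% in T24 and 68.0% in 5637. With a pseudocount of 5 the T24 difference was -0.27, as the added constant weighs more on its low level.

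LY6K was at 81.1 and 65.7 FPKM in T24 (-0.30), against 38.5 and 30.8 FPKM in 5637 (-0.31). These differences were smaller than those of LYPD1 and LYPD3 in both lines, and their counting errors were 0.054 and 0.074.

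CD59 was at 213 and 184 FPKM in T24 (-0.21), against 131 and 121 FPKM in 5637 (-0.12). Its exons overlap those of ENSG00000284969 on the same strand, which was at 1.49 and 2.67 FPKM in T24, against 0.998 and 1.68 FPKM in 5637. How the counting divided reads between them was not tested, and the partner's levels were under 2% of those of CD59.

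LY6E was at 253 and 271 FPKM in T24 (0.098), against 91.0 and 84.1 FPKM in 5637 (-0.11). The signs differed between the lines, while counting errors were 0.040 and 0.065. LYPD6B was compared in 5637 alone, at 4.59 and 3.69 FPKM (-0.25). Its counting error of 0.28 rests on 64.9 and 43.2 fragments on its shortest coding transcript, of 484 bases. On the longest, of 1577 bases, the levels stand for 211 and 141 fragments, which gives a smaller error.

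**Figure D3:**
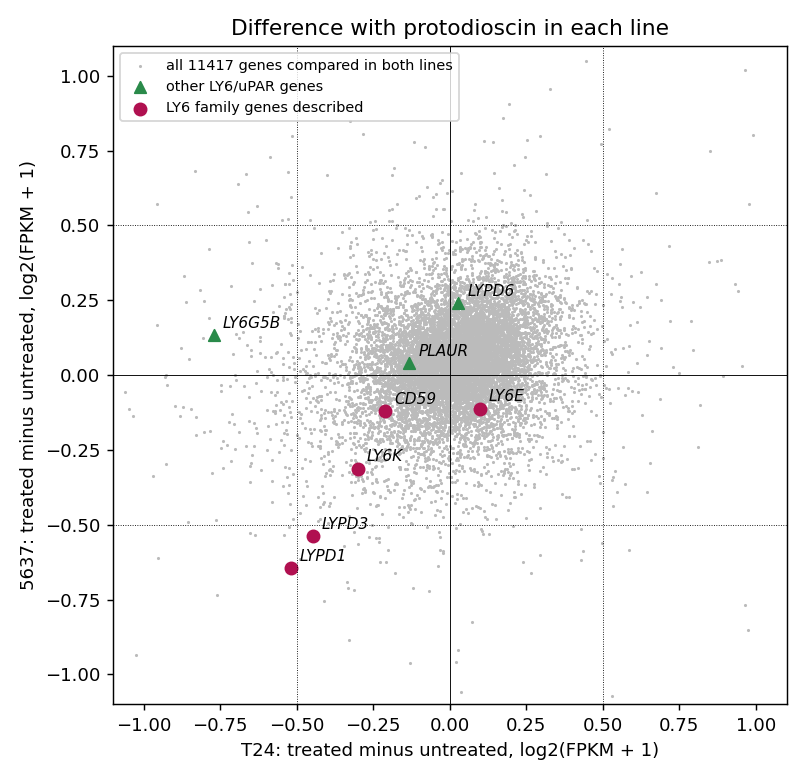
Treated minus untreated difference in T24 (horizontal) and 5637 (vertical), on the log2(FPKM + 1) scale, for 11417 genes compared in both lines (grey), 5 LY6 family genes described (red circles) and 3 other LY6/uPAR genes (green triangles). Dotted lines mark 0.5 and 51 genes lie outside the axes. LYPD1 and LYPD3 are at the lower left, LY6K and CD59 lie between them and the centre, and LY6E is near 0.

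LYPD1 shares exon sequence with GPR39, a zinc-sensing receptor gene on the opposite strand, and the library kit does not mark strand. GPR39 was at 5.50 and 4.26 FPKM in T24 (-0.31), against 13.4 and 11.6 FPKM in 5637 (-0.19), so it was lower in treated cells of both lines as well. Between the lines it had the order opposite to that of LYPD1. Reads of the overlap cannot be told apart by strand, and their part in either value was not tested. Exons of LY6D, LY6E, LY6K, PSCA, CD177, PIGH, PIGT, PGAP3, TMED5, ALPP and CHRNA5, described here, also overlap a gene on the opposite strand. The opposite partners of LY6D, LY6E and LY6K were at 0.449 FPKM or less in all libraries.

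The gene most like LYPD1 over the 4 libraries was its neighbour NCKAP5. Likeness was the Euclidean distance between log2(FPKM + 1) values centred on each gene's mean, over 12526 named genes that reached 1 FPKM in 2 libraries or more. NCKAP5 was at 7.03 and 5.16 FPKM in T24, against 1.32 and 0.652 FPKM in 5637, a distance of 0.15. It is annotated on the same minus strand as LYPD1 and its nearer end is 220 bases from that of LYPD1, and they share no exon. The next nearest were SPOCD1 (25.4, 18.9, 7.22 and 5.12 FPKM in the order untreated T24, treated T24, untreated 5637, treated 5637), at a distance of 0.26, and the potassium channel gene KCNJ2, at 0.27. With 4 libraries, a short distance says little more than that both genes were higher in T24 and lower with treatment.

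For LYPD3 the nearest genes were LINC02966 (distance 0.13), DUSP4 (0.17) and KCNMA1 (0.20). DUSP4 encodes a nuclear phosphatase of MAP kinases. Its level was 22.9 and 15.6 FPKM in T24 (-0.52), against 116 and 93.3 FPKM in 5637 (-0.31). LINC02966 and the potassium channel gene KCNMA1 were under 0.33 FPKM in T24, where log2(FPKM + 1) is near its floor. Of 8 other genes within 200 kb of LYPD3 that reached 1 FPKM in 2 libraries or more, 2 were below 0 in both lines, beside 19.8% of all genes. Differences of the 8 ran from -0.13 to 0.20 in T24 and from -0.25 to 0.17 in 5637. Around LYPD1 the only such genes were GPR39 and NCKAP5.

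**Figure D4:**
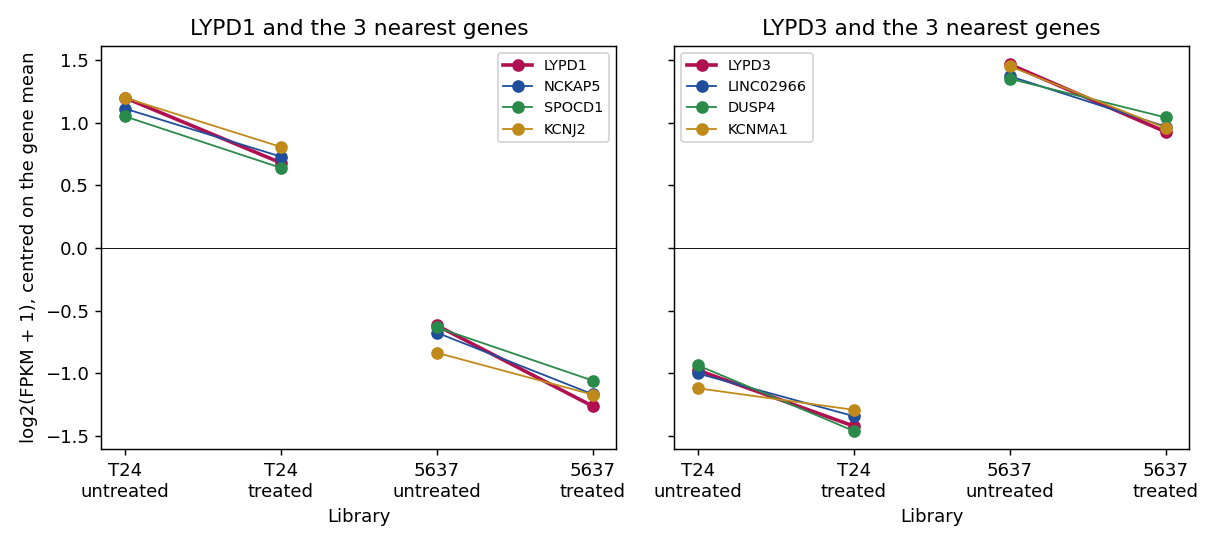
Level of LYPD1 (left) and LYPD3 (right) with the 3 genes of nearest pattern in each library, as log2(FPKM + 1) centred on each gene's mean. Lines join the untreated and treated library of a cell line. NCKAP5 follows LYPD1 at a distance of 0.15, and each gene drawn is lower in the treated library of both lines.

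Other genes of the wider family, which also holds the urokinase receptor, are given for comparison. Of the 3 compared in both lines (PLAUR, LYPD6 and LY6G5B), 0 were below 0 in both, beside 19.8% of all genes compared in both. With TPM or median-ratio scaling PLAUR was below 0 in both. With 3 genes beside that share, nothing is read from this count. Of 31 LY6/uPAR genes listed, 30 were found, 12 were at 0 in all 4 libraries and 12 reached 1 FPKM in at least 1. The 6 between these limits were LY6D, PSCA (0.654 to 0.953 FPKM), LYPD5 (0.536 to 0.784 FPKM), LYNX1 (0.149 to 0.503 FPKM), LYPD2 and LY6H. LYNX1 shares exons with LYNX1-SLURP2 on the same strand. Of all 60617 genes, coding or not, 27829 were above 0 in at least 1 library and the rest were at 0 in all. PLAUR, the urokinase receptor, was at 49.2 and 44.8 FPKM in T24, against 129 and 132 FPKM in 5637, where it was higher (T24 minus 5637 -1.45, SE 0.068, limma adjusted p = 1.49e-05). Treatment differences of PLAUR were -0.13 and 0.040.
LYPD6, the neighbour of LYPD6B 114723 bases away, was also higher in 5637, at 4.17 and 5.12 FPKM against 1.69 and 1.75 FPKM in T24 (-1.05, SE 0.11, limma adjusted p = 0.000343). Unlike LYPD6B it was above 0 with treatment in 5637 (0.24). LY6G5C was higher in T24, at 1.42 and 1.66 FPKM against 0.509 and 0.549 FPKM (a difference of 0.73), and it entered the fit only through T24, so no test is given. LY6G5B was at 2.79 and 1.23 FPKM in T24 (-0.77), against 1.50 and 1.74 FPKM in 5637 (0.13), and it shares exons with CSNK2B on the same strand, so its values are uncertain. CD177 was at 1.20 and 0.693 FPKM in 5637 (-0.38), and PINLYP at 1.15 and 0.837 FPKM in T24 (-0.23).

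Genes that build and attach the GPI anchor lay on both sides of 0. Of the genes for assembly of the anchor, 10 of 19 compared were below 0 in T24 and 3 of 18 in 5637, with medians of -0.013 and 0.035. Over all genes, 44% and 38.5% were below 0. With TPM and median-ratio scaling, 10 and 11 of 18 were below 0 in 5637. None of these assembly genes reached 0.5 in either line, and PIGH was at 7.30 and 8.16 FPKM in T24, against 6.13 and 8.10 FPKM in 5637. DPM1, which makes the mannose donor of the anchor, had levels of 66.96 and 73.7 FPKM in T24, against 57.3 and 64.2 FPKM in 5637.
Of the 5 transamidase subunits, 4 were above 0 in each line, with medians of 0.098 in T24 and 0.18 in 5637. Beside this, 56.0% and 61.5% of all genes were above 0. PIGT was at 129 and 148 FPKM in T24 (0.20), against 77.4 and 89.2 FPKM in 5637 (0.20). PIGU, with 25.95 and 28.0 FPKM in T24 against 22.8 and 25.7 FPKM in 5637, shares exons with NCOA6. Genes that remodel and carry the anchor had medians of 0.059 and 0.12, with 7 of 9 and 8 of 10 above 0. Among them, PGAP3 was at 2.90 and 3.39 FPKM in T24 and the cargo receptor gene TMED5 at 14.9 and 17.2 FPKM.

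Of other GPI-anchored proteins outside the LY6 family, 13 of 16 compared in T24 were above 0 (median 0.064), beside 56.0% of all genes. In 5637, 11 of 23 were above 0 (median -0.020), beside 61.5% of all genes. With TPM scaling 8 were (median -0.063), beside 51.4%, and with median-ratio scaling 7 (median -0.075), beside 46.8%. SEMA7A, a GPI-anchored semaphorin, was at 26.2 and 15.9 FPKM in T24 (-0.69), against 41.6 and 36.3 FPKM in 5637 (-0.19). The hyaluronidase gene HYAL2 was at 9.28 and 14.7 FPKM in 5637 (0.61) and shares exons with TUSC2. Placental alkaline phosphatase, ALPP, was at 1.75 and 0.818 FPKM in 5637 (-0.60) and was listed at 0 in T24. By size, 1 gene of 16 was lower by 0.5 or more in T24 and 1 of 23 in 5637, beside 2.23% and 1.11% of all genes. In 5637, 1 of 23 was higher by that much, beside 1.01%.
Among complement regulators beside CD59, 4 of 4 compared in T24 and 3 of 5 in 5637 were below 0, beside 44% and 38.5% of all genes. Medians were -0.033 and -0.085, and the T24 values were all small, from -0.060 to -0.029. CD55, a GPI-anchored regulator that speeds decay of the C3 convertases, was at 107 and 102 FPKM in T24 (-0.060), against 37.4 and 28.6 FPKM in 5637 (-0.38). Like CD59, it was higher in T24 (1.65, SE 0.087, limma adjusted p = 2.34e-05).
Nicotinic receptors are the family that LYPD1 and LYPD6B modulate, though not every subunit listed is a known target. Of 16 nicotinic receptor subunits, 8 were at 0 in all libraries and 2 reached 1 FPKM. Beside this, 27829 of all 60617 genes were above 0 in at least 1 library. CHRNA5 was at 5.44 and 5.88 FPKM in T24, against 5.87 and 7.43 FPKM in 5637. CHRNB1 was at 4.39 and 4.30 FPKM in T24, against 1.21 and 1.01 FPKM in 5637, and shares exons with ENSG00000272884 on the same strand. Over both lines, limma called 0% of the 12893 genes for treatment (lowest adjusted p 0.0784), among them 0 of the listed genes outside the set, while 1227 genes (9.52%) had an unadjusted p below 0.05.

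**Figure D5:**
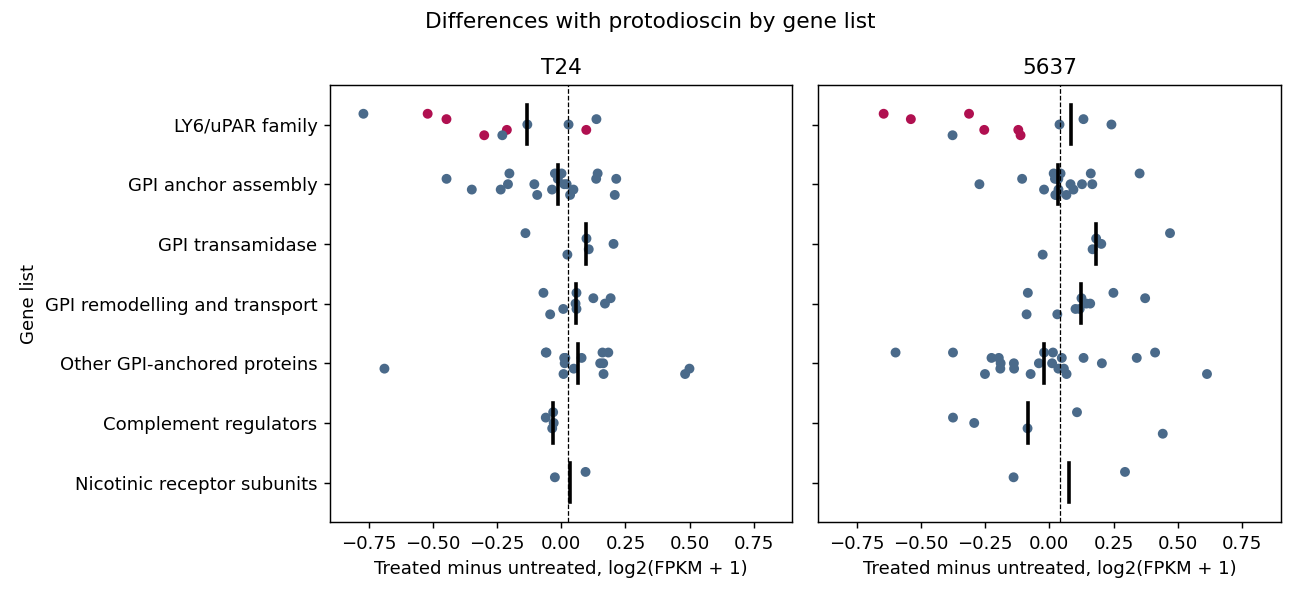
Treated minus untreated difference on the log2(FPKM + 1) scale for each gene compared, by list, in T24 (left) and 5637 (right), with the LY6 family genes described in red. Black bars are medians over the genes outside that set and dashed lines the medians of all genes, 0.025 and 0.043. The transamidase medians are 0.098 and 0.18, to the right of the dashed lines.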

How the data were processed

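Total RNA was made into libraries with the TruSeq RNA kit and read as pairs of 150 bases, per the labels' protocols. The authors deposited FPKM per gene for all 4 libraries in 1 table. The submitters' processing notes list Trimmomatic, HISAT2, StringTie and GRCh38, with no version or role. The annotation used is not stated. StringTie estimates how reads split over overlapping transcripts. Read totals were not in the table, and the value of 1 read was taken from the densest spacing of low values over genes with 1 transcript. Of the genes searched, 49 of 491 lay at that value in untreated T24 and 84 of 688 in treated T24. In 5637 they were 75 of 768 untreated and 67 of 635 treated. Depths, fragment numbers and counting errors all rest on this estimate. A fragment was counted as 2 reads.

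Values were analysed as log2(FPKM + 1), which understates the change of low genes, in Python 3.11.15 with pandas 2.3.3. Genes were compared within a line at 1 FPKM or more in at least 1 library, with 0.5 as size, and between lines with limma 3.58.1 in R 4.3.3 (trended prior, genes reaching 1 FPKM in 2 libraries or more). Line differences were simulated in 50 of 12893 genes for each size of 0.5, 1, 2 and 4, with noise from the fitted variances. There the fit recovered 42.2% of those of 0.5 and 97% of those of 1, with 8.92% of calls false. In the data 68.9% of genes were called, so these rates do not describe the real fit. Coordinates and exon overlap came from GENCODE 29 (bedtools 2.31.1), promoters from RefSeq for 4 of the 7 members. Symbols were found for 42000 of 60617 IDs.

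Members and the 7 gene lists were chosen with earlier results of these data known. Named from the lists were all LY6/uPAR genes reaching 1 FPKM and, elsewhere, genes at the size of 0.5 or else the 2 with the largest shared difference, of which 1 gene is not reported here. Also named were the 3 genes nearest to LYPD1 and to LYPD3. Overlap partners, NCKAP5 as a neighbour, the marker genes, and the LY6/uPAR genes under 1 FPKM were named after their values were seen. Alternatives changed the pseudocount, filter, scaling, terms and prior, and left out each library.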

Additional observations from a re-analysis of the deposited data

Results flagged for a closer look

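The differences with treatment in T24 and 5637 had opposite signs for 3 of the named genes compared in both lines. With 1 pair of libraries per line, the difference between the lines was not tested, and the doses were 60 and 70 µM. LY6E was at 0.098 in T24 and -0.11 in 5637, so 5637 minus T24 was -0.21. LY6G5B was at -0.77 and 0.13 (5637 minus T24 0.90), and it shares exons with CSNK2B. PLAUR was at -0.13 and 0.040 (0.17), and its 5637 value was below 0 with TPM and median-ratio scaling.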

How the results depend on the processing

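LYPD1, LYPD3, LY6K and CD59 stayed below 0 with treatment in both lines under every alternative run. LYPD1 ran from -0.53 to -0.49 in T24 and from -0.71 to -0.55 in 5637, LYPD3 from -0.53 to -0.27 and from -0.60 to -0.48. LYPD1 in T24 was short of 0.5 with a pseudocount of 5 (-0.50) and quantile scaling (-0.49), and LYPD3 in 5637 with a pseudocount of 5 (-0.48). LYPD3 in T24 passed 0.5 with a pseudocount of 0.1. CD59 drops out when genes whose exons overlap another gene on their own strand are left out. That alternative keeps LYPD1, LY6E and LY6K, whose overlaps are on the opposite strand. The line differences of LYPD1, LYPD3, LY6E, LY6K and CD59 kept their sign and limma call throughout, with highest adjusted p-values of 0.0326, 0.0179, 0.00875, 0.0349 and 0.0471.

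Genes lower and higher by 0.5 or more numbered 272 and 126 in T24 and 140 and 128 in 5637. They were 466, 296, 321 and 383 with a pseudocount of 0.1, 65, 36, 36 and 24 with 5, 134, 57, 59 and 50 with a filter at 5 FPKM, and 178, 73, 87 and 85 without genes sharing exons on the same strand. With TPM scaling, 242 were higher in T24, and 321 lower and 225 higher in 5637. The share of these calls that were higher in 5637 was 47.8%, against 34.9% with median-ratio and 35.3% with quantile scaling. Genes called between the lines numbered 4521 higher in T24 and 4365 higher in 5637, and 2722 to 3570 and 2781 to 3548 when each library was left out in turn, lowest in T24-higher genes without untreated 5637 (2722) and in 5637-higher genes without treated 5637 (2781). Treatment over both lines gave 0 calls, and 2 with a pseudocount of 0.1. Signs turned for PLAUR in 5637 (-0.0029 with TPM and -0.022 with median-ratio scaling), HYAL2 in T24 (-0.0014 with quantile scaling), and, between the lines, LY6G5B (-0.23 to 0.54 over the left-out libraries, lowest without untreated T24) and PIGH (-0.062 to 0.29, lowest without untreated 5637). The cause was not tested. The labels number no replicates, so no replicate number could serve as a block. The treatment fit compares libraries within each line through its line term.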
